A study of Mus musculus with 4 samples.

Results

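The Isl1 locus was examined for Pitx1 binding in embryonic hindlimb buds. It was taken as all Pitx1 ChIP-seq peaks with a midpoint in chr13:116400000-118200000 (mm9), a window of 1.8 Mb that holds Isl1 at about 117.09 Mb, the gene desert beside it and Parp8. The window held 11 of the 14753 peaks of replicate 1, 24 of the 25027 peaks of replicate 2, and 8 of the 10274 replicated regions. A replicated region is the union of peaks from the 2 lists that overlap by at least 1 bp. The window was defined by position and not by peak values, though with earlier results of these data known.

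The study holds 4 libraries from wild-type hindlimb buds of the outbred ICR mouse strain at E11.5 (mid-gestation). Of these, 2 are Pitx1 chromatin immunoprecipitation (ChIP) libraries made with 1 antibody, and 2 are input chromatin with no antibody. No list of peaks for the input libraries, no forelimb library and no ChIP with a control antibody were analysed here, so a peak in both lists may be Pitx1 binding or chromatin that comes down with any antibody. Whether the replicates are separate litters is not stated in the labels, so the spread between them may be technical. Whole buds mix mesenchyme, ectoderm and other cells.

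Isl1 encodes a LIM-homeodomain transcription factor. It is made in the hindlimb field and not in the forelimb field, and the hindlimb bud needs it to begin growing out. Pitx1 is a paired-class homeodomain factor that is likewise made in the hindlimb and gives it hindlimb identity. Genes of early development such as Isl1 often lie beside long stretches without other genes, in which distant enhancers can be found. Parp8 encodes a member of the poly(ADP-ribose) polymerase family. In the RefSeq gene order of another build (GRCm38.p6), Parp8 is the next protein-coding gene after Isl1 toward higher coordinates, and Pelo is the next toward lower coordinates. Coordinates were not converted between builds, so a peak could not be assigned to an exon, an intron or a promoter.

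The promoters of Isl1 and Parp8 are shown because Pitx1 belongs to the bicoid-like homeodomain factors, which prefer the core TAATCC. Whether the window holds further genes was not examined. They are the 250 bases before each start in RefSeq, build GRCm38.p6, minus strand, at chr13:116309689-116309938 for Isl1 and chr13:117025532-117025781 for Parp8. These positions cannot be set against the mm9 positions of the peaks. Capitals mark the core, which was searched on both strands.
Isl1: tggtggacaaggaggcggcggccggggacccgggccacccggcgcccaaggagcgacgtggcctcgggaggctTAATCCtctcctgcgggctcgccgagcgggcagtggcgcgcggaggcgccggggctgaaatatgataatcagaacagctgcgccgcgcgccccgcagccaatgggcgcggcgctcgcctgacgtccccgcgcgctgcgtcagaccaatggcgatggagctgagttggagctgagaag
Parp8: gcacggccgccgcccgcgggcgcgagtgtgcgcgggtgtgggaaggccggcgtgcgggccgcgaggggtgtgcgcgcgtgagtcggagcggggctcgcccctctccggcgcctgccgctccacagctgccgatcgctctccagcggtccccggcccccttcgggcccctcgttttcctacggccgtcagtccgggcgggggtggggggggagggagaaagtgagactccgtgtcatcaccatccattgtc

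The Isl1 stretch held the core once, on the strand shown, from 177 to 172 bases before the start, and the Parp8 stretch did not hold it. Of 32851 such RefSeq stretches, 6.25% held it on either strand. Both stretches are rich in G and C, at 71.2% for Isl1 and 74.8% for Parp8. A match to the core is a description of the letters and not a binding site.

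The number of Pitx1 peaks at the Isl1 locus was somewhat above that of a typical stretch of autosome of the same size. The 8 replicated regions gave a density of 4.44 per Mb (95% exact Poisson interval 1.92 to 8.76), against 4.11 per Mb over the 19 autosomes. Among 1357 other autosomal windows of 1.8 Mb, the median was 6 replicated regions (quartiles 3 and 10). Of these windows, 804 held fewer replicated regions than the Isl1 window, 78 held as many and 475 held more, so 40.8% held at least as many. The highest count in a window was 49. The Isl1 window therefore stood at percentile 62.1 of windows for replicated regions, and at percentile 49.2 among the 64 windows of chromosome 13 alone. The 1357 windows include some with no replicated region. Among the 1239 windows with at least 1, it stood at percentile 58.5.

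Each list alone gave a count above the median window. Replicate 1 had 11 peaks in the Isl1 window (6.11 per Mb, interval 3.05 to 10.9) against a median of 9 per window (quartiles 4 and 15), at percentile 58.8. Replicate 2 had 24 peaks (13.3 per Mb, interval 8.54 to 19.8) against a median of 16 (quartiles 8 and 25), at percentile 73.1. None of these counts lay above the upper quartile of the windows. The window of equal size that adjoins it at lower coordinates held 3 replicated regions, and the one at higher coordinates held 6. Windows are not replicates, and the intervals cover counting error only.

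**Figure D1:**
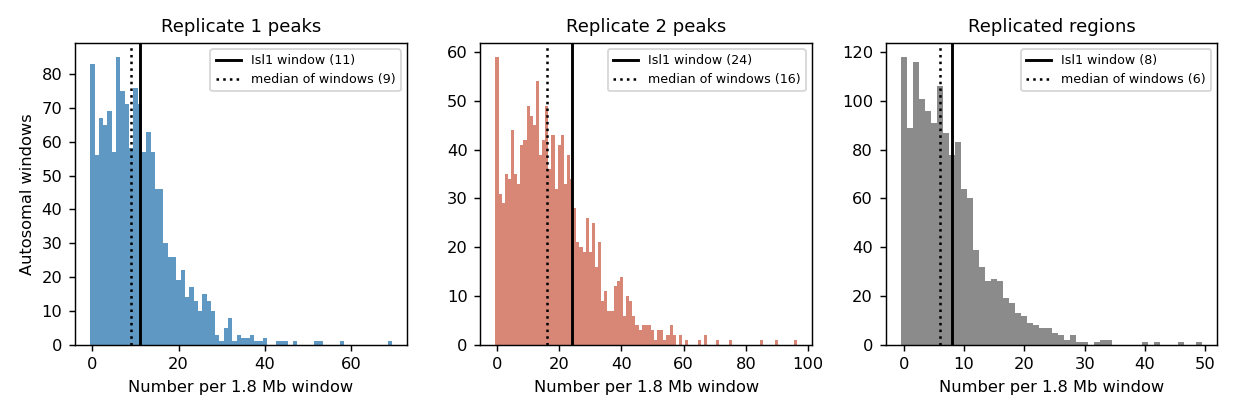
Number of replicate 1 peaks, replicate 2 peaks and replicated regions (x axis) in each of 1357 autosomal windows of 1.8 Mb (y axis, number of windows). The solid line is the Isl1 window (11, 24 and 8) and the dotted line the median of the windows (9, 16 and 6).

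Recurrence of peaks between the replicates at the Isl1 locus lay near that of the autosomes. Of the 11 replicate 1 peaks, 8 overlapped a replicate 2 peak (72.7%, 95% exact binomial interval 39.0 to 94.0%), against 69.9% of all autosomal replicate 1 peaks. Of the 24 replicate 2 peaks, 8 overlapped a replicate 1 peak (33.3%, interval 15.6 to 55.3%), against 42.6% of all autosomal replicate 2 peaks. Both intervals hold the autosomal share, so no difference was detectable with so few peaks.

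At the locus, shared peaks were mostly those with a high score, as over the autosomes. The score is the value that the peak caller gave each peak, which by this caller's usual convention rises as the peak's p-value falls, though the lists do not say so. Scores are compared here as rank percentiles within a list, where 100 is the strongest peak. In the upper 50% of replicate 2 by score, 8 of 12 Isl1 locus peaks were shared (66.7%), against 63.6% of autosomal peaks in that upper part. In the lower 50%, 0 of 12 were shared (interval 0 to 26.5%), against 21.5% over the autosomes, which lies within the interval. In the upper 50% of replicate 1, 7 of 8 Isl1 locus peaks were shared, against 86.9% over the autosomes. In its lower 50%, 1 of 3 was shared, against 52.7%.

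**Figure D2:**
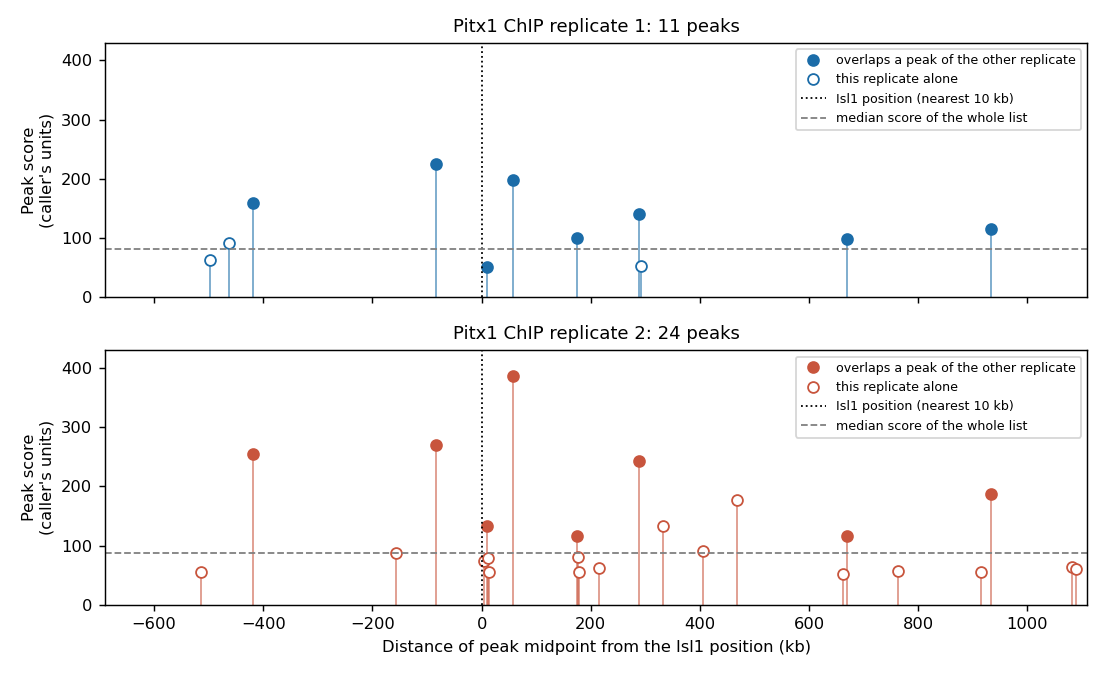
Score of each Pitx1 peak (y axis, the caller's units) against the distance of its midpoint from the Isl1 position in kb (x axis), for the 11 peaks of replicate 1 and the 24 of replicate 2. Filled points overlap a peak of the other replicate, and in replicate 2 every filled point lies above the dashed median score of the whole list.

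The replicated regions of the Isl1 locus ranked above the autosomal median in score. The mean of their rank percentiles in the 2 lists had a median of 79.6 (range 35.7 to 91.1, 8 regions), against 64.6 over 10145 autosomal replicated regions. Of the 8, 7 were in the upper 50% of both lists, against 53.5% of autosomal replicated regions. Among the 837 windows with at least 5 replicated regions, the median of the Isl1 window was at percentile 91.5. That position was lower with stricter lists and in replicate 2 alone. It was percentile 58.8 among 468 windows when only the best 50% of each list was used, with ranks taken anew within it. It was percentile 44.7 among 1169 windows for all replicate 2 peaks, most of which did not recur. In the best 25% the Isl1 window held 4 regions, fewer than the 5 required of the windows, so its percentile of 21.7 among 175 windows is not a like comparison.

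The strongest replicated regions lay on both sides of Isl1. Distances are from the Isl1 position of 117.09 Mb to a region's midpoint, are positive toward higher coordinates, and are only as exact as that position, which is known to about 10 kb. The strongest, at chr13:117146364-117147081 and 56.7 kb, scored 198 in replicate 1 and 386 in replicate 2, at rank percentiles 88.0 and 94.2. The second, at chr13:117005973-117006895 and -83.6 kb, scored 225 and 270 (percentiles 90.6 and 89.4) and was the longest of the 8 at 923 bp. These are the regions nearest to Isl1 apart from the one at 9.99 kb described below. By the sum of their ranks they were at places 1229 and 1545 of the 10274 replicated regions of the genome.

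The third region, at chr13:116670841-116671402 and -419 kb, scored 160 in replicate 1 and 254 in replicate 2 (percentiles 82.8 and 88.5). It was the farthest from Isl1 toward lower coordinates and 335 kb from the nearest other replicated region. The fourth, at chr13:117377245-117378024 and 288 kb, scored 141 and 243 (percentiles 78.6 and 87.7). The fifth, at chr13:118021998-118022800, was the farthest of all at 932 kb and scored 116 and 187 (percentiles 70.7 and 81.5). These 5 regions ranked above the median of shared autosomal peaks in each list, which was percentile 61.9 in replicate 1 and 73.7 in replicate 2.

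The sixth and seventh regions were close to each other in score though far apart. The sixth, at chr13:117264439-117265233 and 175 kb, scored 99.4 in replicate 1 and 117 in replicate 2 (percentiles 63.2 and 65.0). The seventh, at chr13:117759154-117759986 and 670 kb, scored 98.1 and 116 (percentiles 62.4 and 64.8). Both lay just above the median of shared peaks in replicate 1 and below it in replicate 2.

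The region nearest to Isl1 was the weakest of the 8 in replicate 1 and by summed rank, and the one whose rank differed most between the replicates. In replicate 2 it ranked above the sixth and seventh regions. At chr13:117099700-117100288, 9.99 kb from the Isl1 position, it scored 50.5 in replicate 1 and 132 in replicate 2. The first value is just over the lowest score of that list, 50, at rank 14599 of 14753 (percentile 1.02), while the second is at percentile 70.3. The difference of 69.3 percentile points compares with 1.19 to 10.8 points in the other 7 regions and with a median of 15.8 over the autosomes. A difference that large was found in 2.84% of autosomal replicated regions. This comparison was chosen after the values were seen.

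**Figure D3:**
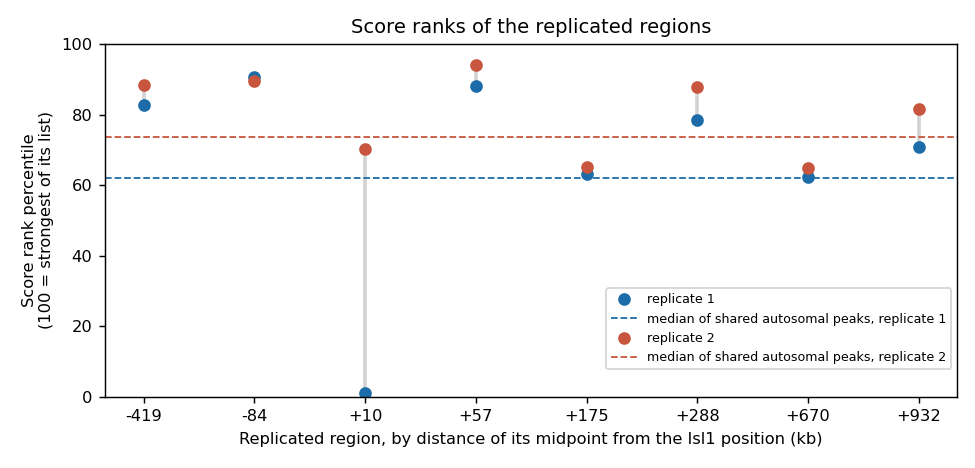
Score rank percentile (y axis, 100 is the strongest peak of a list) of the 8 replicated regions in replicate 1 and replicate 2, ordered by distance from the Isl1 position (x axis, kb). The dashed lines are the medians of shared autosomal peaks, 61.9 and 73.7, and the region at 9.99 kb is the only one whose points lie far apart.

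The order of scores over all 8 regions, the one at 9.99 kb included, was much alike in both libraries. Spearman's rho between the scores was 0.905 over the 8 regions, against 0.559 over the autosomal replicated regions, as a description of sites that share their libraries. Midpoints of the overlapping peaks differed by a median of 42.3 bp (range 5 to 88.5 bp), against 60.5 bp over the autosomes. Replicate 1 peaks were the wider in 8 of 8 regions, by a median of 1.34 times (range 1.07 to 1.72), against 1.46 times over the autosomes. Over all autosomal peaks the median width was 798 bp in replicate 1 and 456 bp in replicate 2, so this is not particular to the locus.

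Replicate 2 had a run of peaks near the Isl1 position that replicate 1 largely lacked. A run here is a set of 3 or more peaks with successive midpoints under 10 kb apart. The run had 4 peaks within 9.32 kb, at chr13:117094343-117103660, from 4.34 to 13.7 kb from the Isl1 position. As that position is known only to about 10 kb, the run may lie beside the gene or within it. Their scores were 73.3, 132, 78.9 and 55.5 in order of position, and only the second overlapped a replicate 1 peak. The other 3 were in the lower 50% of the list, at percentiles 37.4, 43.1 and 12.4, and lay 4.91, 2.03 and 3.0 kb from that replicate 1 peak. Over the autosomes only 21.5% of replicate 2 peaks in that lower part were shared, so their absence from replicate 1 is the usual outcome.

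A further run of 3 replicate 2 peaks lay within 3.26 kb at chr13:117264600-117267862, and it overlaps the sixth replicated region. Its scores were 117, 80.8 and 55.3, and only the first, the strongest, was shared. Its unshared peaks were 0.093 kb apart, so a single stretch split by the caller would look the same. Runs took in 7 of the 24 replicate 2 peaks at the locus, against 16.9% of autosomal replicate 2 peaks. In replicate 1 they took in 0 of 11, against 7.73%. Over the autosomes replicate 2 had 1127 such runs, 403 of them with 4 or more peaks, so neither run was rare in kind. The 8 replicated regions formed no run, and their nearest neighbours were 46.7 kb apart.

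**Figure D4:**
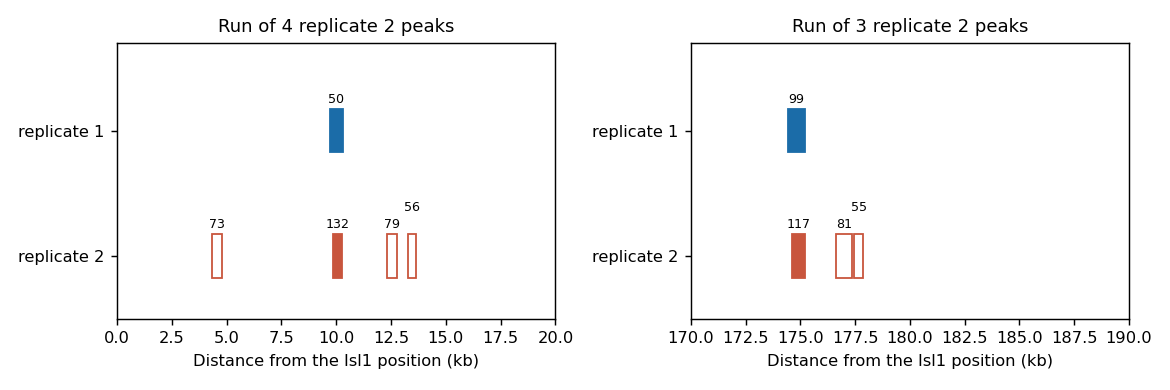
Extent of each peak (bars; x axis, distance from the Isl1 position in kb) in replicate 1 and replicate 2 at the runs of 4 and of 3 replicate 2 peaks, with the score printed above each bar. Filled bars overlap a peak of the other replicate, and in each run 1 replicate 2 peak is filled.

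Peaks seen in 1 library were mostly weak, with a few exceptions in replicate 2. The 16 unshared replicate 2 peaks had a median score of 62.6 (range 52.4 to 176) and a median percentile of 24.3, against 35.3 for unshared autosomal peaks. The strongest, at chr13:117557588-117558216 and 468 kb, scored 176 (percentile 79.9), above 3 of the shared peaks of that list. It lay 176 kb from any replicate 1 peak. The 3 unshared replicate 1 peaks scored 63.7, 90.9 and 53.4. The strongest of these was at chr13:116626256-116627024 and -463 kb, at percentile 57.7 and 43.9 kb from the nearest replicate 2 peak. The weakest, at 291 kb, lay 3.07 kb from the replicate 2 peak of the fourth region.

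Between replicated regions of the window, the longest stretch without one ran for 382 kb between the midpoints of the fourth and seventh regions. Stretches that cross an edge of the window were not counted and can be longer. The nearest replicated regions outside lay 443 kb below the window's start and 295 kb above its end. The stretch of 382 kb was not free of peaks. Replicate 2 had 4 peaks there, 3 of them in its upper 50%, including the unshared peak at 468 kb. The others in that part were at chr13:117422117-117422666 (score 133) and chr13:117495875-117496364 (score 91.7). Replicate 1 had 1 peak there, the weak one at 291 kb.

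Pitx1 peaks were unevenly placed about the Isl1 position in replicate 2, with wide counting error on each side. The difference between the sides was not tested, and 7 of the replicate 2 peaks at higher coordinates sit in runs. Of the 8 replicated regions, 2 lay at lower coordinates than the Isl1 position, in 0.69 Mb, and 6 at higher coordinates, in 1.11 Mb. The densities were 2.90 per Mb (interval 0.351 to 10.5) and 5.41 per Mb (interval 1.98 to 11.8), which overlap. Replicate 2 had 4 and 20 peaks on the lower and higher sides, or 5.80 (interval 1.58 to 14.8) and 18.0 per Mb (interval 11.0 to 27.8). Replicate 1 had 4 and 7, or 5.80 and 6.31 per Mb. Split at the Isl1 position, the lower side had 4 peaks in each list. The surplus of replicate 2 peaks was then all on the side of higher coordinates, where Parp8 follows Isl1 in the RefSeq order. The run of 4 replicate 2 peaks from 4.34 to 13.7 kb and the replicated region at 9.99 kb lie close to that position. As the position is known only approximately, their side of Isl1 is uncertain, and so are the counts on each side.

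A further list deposited by the authors gives positions of 1 bp with no score. It had 8 positions in the window, and each replicated region held exactly 1 of them. All 8 lay in a peak of each list. Over the autosomes 98.7% of positions lay in a replicate 1 peak, so that match is not particular to this locus. The autosomal share in replicate 2 peaks, and that of replicated regions with exactly 1 position, were not computed. They were a median of 18.3 bp (range 7 to 73.5 bp) from the centre of the replicate 2 peak and 35.5 bp (range 2 to 79 bp) from that of the replicate 1 peak. The region at 9.99 kb, with its lowest-ranked replicate 1 peak, was among those listed. As the list may derive from the same peaks, its positions are not separate support for any region.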

How the data were processed

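Pitx1 ChIP peaks were taken from 2 lists, 1 per ChIP library, on build mm9. The submitters' processing notes name MACS 1.4.2, Bowtie 0.12.8, bedtools 2.16.2 and CASAVA (1.7, 1.8.2), with no roles. How peaks were called against the input is not stated there. The deposited score is the caller's own value per peak and was used as ranks within a list. Deposited 1 bp positions (other) carry no score. Read depth is unknown.

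Equal windows were tiled from the start of each autosome to its last peak, leaving out those that meet the Isl1 window. A percentile is the share of windows below, plus 50% of ties. Regions named are the 10 best by summed rank (all 8 here), those nearest Isl1, the strongest unshared peaks, run members and gap borders. Members, lists and comparisons were chosen with earlier results of these data known. No test of significance was made. Scripts were tested on simulated lists with planted peaks. Software was scipy 1.17.1, pandas 2.3.3, numpy 2.4.6 and matplotlib 3.10.9 under Python 3.11.15. Alternatives included stricter scores, equal list lengths, other overlaps, each list alone, other windows and the 1 bp positions.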

Additional observations from a re-analysis of the deposited data

How the results depend on the processing

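No paired analysis was possible because only the ChIP libraries came with peaks, and no groups were compared. The number of replicated regions was 7 in the best 50% of each list and 4 in the best 25%, which hold fewer peaks. It was 8 with equal numbers of best peaks, reciprocal overlap of 50%, midpoints within 250 bp and the 1 bp positions. With each replicate left out in turn, peaks in place of regions numbered 11 to 24. The density percentile of the window was 83.7 in the best 25%, 82.2 in the best 50%, 76 for 500 kb on each side of Isl1, 49.2 on chromosome 13 alone, and 58.8 to 73.1 with each replicate left out in turn. The median rank percentile was 66.3 in the best 50% and 51.4 in the best 25%, where ranks are taken anew, and 47.5 to 63.2 with each replicate left out. Its place among windows was percentile 58.8 in the best 50% (468 windows), 21.7 in the best 25% (175 windows, where the Isl1 window has 4 regions and misses the minimum of 5), and 44.7 to 83.2 with each replicate left out; the cause was not tested. Shared peaks made up 100% of replicate 1 peaks in the best 25%, where the window held only 4 replicated regions. They made up 66.7% of replicate 2 peaks in the best 25%, 58.3% in the best 50% and 57.1% with equal numbers. Autosomal shares for these shorter lists are not given here, so no excess at the locus can be read from them. Of replicated regions, 71.4 to 75% lay above the Isl1 position in the best 50%, with equal numbers and with both other overlaps, and 50% in the best 25%. Of the peaks of a single list, 63.6 to 83.3% did with each replicate left out. Only 8 regions and unknown read depth limit all of these values.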
